A study of Mus musculus with 27 samples.

Results

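Long-term formative pluripotent stem cells (fPSCs) were compared with epiblast stem cells (EpiSCs) across all genes of the mouse by RNA-seq. The comparison uses 5 of the 27 samples of the series: 3 fPSC libraries from passages 10, 20 and 30 (P10, P20 and P30) and 2 EpiSC libraries of the same deposit. They were chosen by their labels and not by any measured value. All cells are wild type by their labels. fPSCs were kept as spheres in Matrigel in N2B27 medium with Activin A (20 ng/ml), bFGF2 (12 ng/ml) and XAV939, an inhibitor of tankyrase that dampens Wnt signalling. By the study's methods they are 1 line, CMT, that was made from mouse embryonic stem cells (mESCs), so the 3 libraries are passages of 1 line and not separate derivations. EpiSCs were kept flat on fibroblasts inactivated with mitomycin C (feeders), with the same 3 factors and with 15% knockout serum replacement. Their line and genetic background are not given in the sources used here. The line, the feeders, the serum replacement and the growth in Matrigel cannot be told apart from the cell state in this comparison.

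Pluripotent cells of the mouse are ordered from the naive state of the blastocyst, over the formative state of the early egg cylinder, to the primed state of the epiblast before and during gastrulation. EpiSCs stand for the primed state. The early egg cylinder epiblast is an epithelium with cadherin junctions and a lumen, and cells that leave it through the primitive streak take on mesenchymal genes such as Vim. Mouse ESCs in 2i and LIF (2 libraries) and EpiLCs, which are ESCs moved to Activin A, bFGF2 and 1% knockout serum replacement (2 libraries), serve as a reference for feeder RNA. Both are called feeder-free here, by the labels for mESCs and because the labels name no feeders for EpiLCs.

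Expression was deposited as FPKM, which scales fragments by transcript length and by library size, and was compared as log2(FPKM + 1). FPKM do not keep the number of reads, so depth is unknown here, and a fold change on this scale understates the change of genes with low FPKM. Summed FPKM ran from 323465 to 341577 in the 5 libraries and 10034 to 10933 genes reached 1 FPKM. Pou5f1, which marks all pluripotent cells, was at 226 and 234 FPKM in EpiSCs and at 493, 462 and 499 FPKM in fPSCs P10, P20 and P30. Sall4 and Tdgf1 were also present in every library, at 51.7 to 140 FPKM in fPSCs and 35.1 to 106 FPKM in EpiSCs. Across the 12316 genes tested, Pearson's r was 0.983 to 0.989 between fPSC libraries, 0.984 between the EpiSC libraries and 0.871 to 0.900 between the groups, as a description over genes. Between P10 and P20 116 genes differed by 1 or more on the log2 scale, against 236 between P10 and P30 and 168 between the EpiSC libraries. Nothing in the sources says that the EpiSC libraries come from separate cultures, so p-values measure the spread between these libraries, which may be technical.

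Of the tested genes of the epithelial program, 18 of 33 were higher in fPSCs than in EpiSCs. All tested genes of the mesenchymal and contractile lists and 13 of 14 basement membrane genes were lower. With limma, 3885 of 12316 genes (31.5%) passed a Benjamini-Hochberg adjusted p of 0.05 and a fold change of 1.5. Of these 1248 (10.1%) were higher and 2637 (21.4%) lower in fPSCs. The falls were also larger than the rises. At least 4-fold changes were seen in 38 higher and 509 lower genes, and at least 16-fold changes in 4 and 75. Over all tested genes the median log2 difference was -0.04. The fPSC and EpiSC libraries did not overlap for 65.9% of genes, so a lack of overlap is common at these group sizes. All 1248 higher and all 2637 lower genes were without overlap, so for a gene that passed this adds no evidence. Without the second EpiSC library 2078 genes passed, 528 higher and 1550 lower, so that library weighs on the counts.

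**Figure D1:**
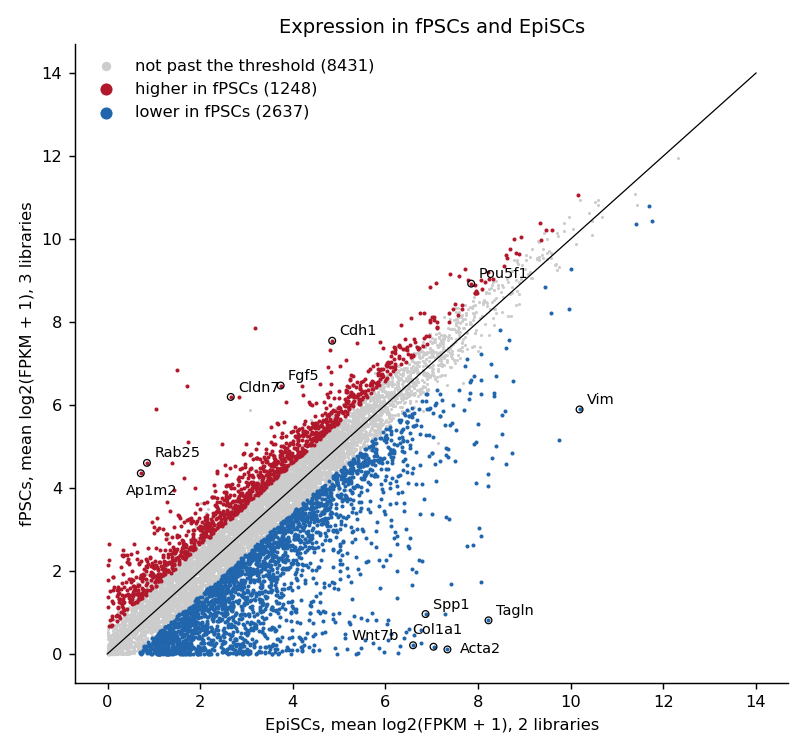
Mean log2(FPKM + 1) of the 12316 tested genes in EpiSCs (x axis, 2 libraries) and in fPSCs (y axis, 3 libraries); each point is a gene, red for the 1248 genes higher and blue for the 2637 lower in fPSCs by the limma threshold, and the line marks equal levels. Tagln, Acta2 and Col1a1 lie far below the line, and Rab25 and Ap1m2 far above it.

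Rab25 and Ap1m2, both genes of vesicle traffic in polarised epithelia, were among the 12 named genes with the largest rises. Rab25, a small GTPase of apical recycling endosomes, was at 0.664 and 0.955 FPKM in EpiSCs and at 20.9, 25.01 and 24.1 FPKM in fPSCs P10, P20 and P30. It rose by 3.75 on the log2 scale (SE 0.27, limma adjusted p = 8.10e-06). Ap1m2, the epithelial subunit of the clathrin adaptor AP-1, was at 0.482 and 0.826 FPKM in EpiSCs and at 19.02, 21.6 and 17.8 FPKM in fPSCs. It rose by 3.63 (standard error 0.29, limma adjusted p = 1.43e-05). Neither gene had an fPSC library that came near the EpiSC libraries. Both genes were also above EpiSCs in the feeder-free reference cells, where Rab25 was at 3.69 to 28.3 FPKM and Ap1m2 at 7.57 to 18.8 FPKM over the 4 mESC and EpiLC libraries.

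Of 36 genes on a list of the epithelial program, 33 were tested, and 18 rose, 5 fell and 10 did not pass. Their median log2 fold change was 0.89. Among all tested genes 10.1% rose and 21.4% fell. Cdh1, which encodes E-cadherin, was at 26.8 and 29.0 FPKM in EpiSCs and at 198, 175 and 185 FPKM in fPSCs, a rise of 2.70 (standard error 0.17, limma adjusted p = 3.37e-06). Cldn7, a claudin of tight junctions, was at 3.79 and 7.35 FPKM in EpiSCs and at 59.3, 84.9 and 74.3 FPKM in fPSCs, a rise of 3.53. Another claudin, Cldn6, rose by 2.09 and the adhesion molecule Epcam by 2.15. Every fPSC library was above both EpiSC libraries for these genes, as for every gene called higher. The regulators of the program rose at lower levels. Grhl2, a transcription factor that activates epithelial genes, was at 0.309 and 0.372 FPKM in EpiSCs and at 5.25, 4.06 and 3.45 FPKM in fPSCs. Its log2 fold change was 1.96 (limma adjusted p = 2.72e-05). Esrp1, which sets epithelial splicing, rose by 2.11 and Ovol2, a repressor of mesenchymal genes, by 0.96. Without the first EpiSC library Ovol2 no longer passed (limma adjusted p = 0.0586). The junction genes of the list did not all rise: Cldn3, Cldn9, Marveld2, Cdh3, Dsp and Pkp3 did not pass, although Marveld2 passed without P30 (limma adjusted p = 0.0450) and Marveld2 and Pkp3 with 4 fPSC libraries of a later deposit added (0.0214 and 0.0130). The tight junction genes Ocln and Marveld3 rose by 1.51 and 1.81, and the serine protease inhibitor Spint2 by 1.93.

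The 5 epithelial genes that fell were the keratins Krt8, Krt18 and Krt19, the claudin Cldn4 and the desmosome gene Perp. Krt8, a keratin of simple epithelia, was at 353 and 376 FPKM in EpiSCs and at 47.7, 47.9 and 24.6 FPKM in fPSCs, and fell by 3.22 on the log2 scale (limma adjusted p = 8.32e-05). Its partner Krt18 fell by 2.77 and Krt19 by 3.38. The fPSC and EpiSC libraries did not overlap for any of these 5 genes, as for every gene that passed. Where 10.1% of all tested genes rose and 21.4% fell, 3 of 22 tested genes of apical polarity rose, 3 fell and 16 did not pass. The largest of these was Crb3, the Crumbs protein of the apical membrane, at 2.31 and 2.40 FPKM in EpiSCs and 35.1, 35.0 and 29.7 FPKM in fPSCs, a rise of 3.35 (limma adjusted p = 1.49e-06). Podxl, a sialomucin of the lumen membrane, and Msn, which links that membrane to actin, fell by 0.77 and 1.55, and without the first EpiSC library Podxl no longer passed (limma adjusted p = 0.0509), nor with the 4 later fPSC libraries added (0.0875).

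**Figure D2:**
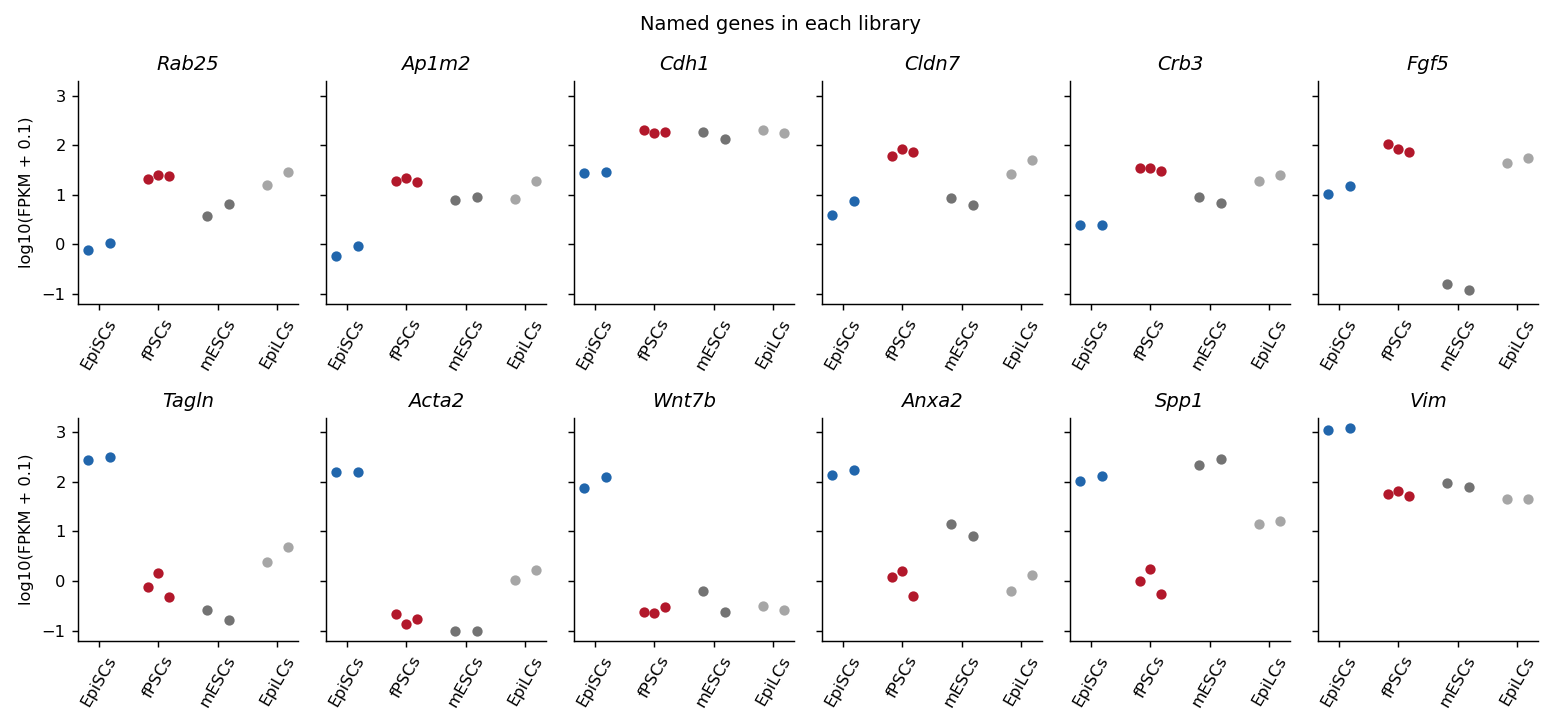
FPKM of 12 genes in each library (y axis, log10 scale of FPKM + 0.1) for EpiSCs (2 libraries), fPSCs P10, P20 and P30, and the feeder-free mESCs and EpiLCs (2 libraries each); each point is 1 library. In the upper row every fPSC library lies above both EpiSC libraries and in the lower row every fPSC library lies below them.

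The promoters of Rab25, Ap1m2 and Cdh1 are shown because the 3 genes share a short sequence next to their start sites. These are the 250 bases before each annotated start, 5′ to 3′ on the strand of the gene, from the mm9 assembly. Capitals mark CACCTG or its complement CAGGTG, the E-box that the repressors Snai1, Snai2, Zeb1 and Zeb2 are known to bind. Rab25 lies on chromosome 3 (88345951 to 88352222, minus strand), Ap1m2 on chromosome 9 (21099901 to 21116777, minus strand) and Cdh1 on chromosome 8 (109127251 to 109194146, plus strand).
Rab25, chr3:88352223-88352472: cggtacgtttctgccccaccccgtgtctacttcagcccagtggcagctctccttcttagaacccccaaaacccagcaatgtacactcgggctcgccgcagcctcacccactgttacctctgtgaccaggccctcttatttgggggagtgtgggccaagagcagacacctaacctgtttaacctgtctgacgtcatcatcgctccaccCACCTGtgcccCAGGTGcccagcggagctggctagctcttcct
Ap1m2, chr9:21116778-21117027: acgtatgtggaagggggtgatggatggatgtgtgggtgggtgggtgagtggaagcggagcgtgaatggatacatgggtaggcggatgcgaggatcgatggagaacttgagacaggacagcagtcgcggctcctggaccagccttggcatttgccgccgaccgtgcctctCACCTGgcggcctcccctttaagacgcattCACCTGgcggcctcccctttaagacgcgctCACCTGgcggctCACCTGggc
Cdh1, chr8:109127001-109127250: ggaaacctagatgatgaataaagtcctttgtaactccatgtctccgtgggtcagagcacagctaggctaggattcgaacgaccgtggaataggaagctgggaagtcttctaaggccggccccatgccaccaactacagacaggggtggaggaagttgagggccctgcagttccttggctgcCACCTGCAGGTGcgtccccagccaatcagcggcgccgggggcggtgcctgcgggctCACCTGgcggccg
Rab25 holds 2 of these E-boxes, Ap1m2 4 and Cdh1 3. The same window of Cldn7 and of Crb3, which also had large rises, held 0. That of Wnt7b, which had a large fall, held 1. A role of the motif in the rises was not tested. The motif was chosen after these sequences had been read. On either strand it is present in 24 of the 36 promoters of the epithelial list (66.7%) and in 3759 of all 22072 protein-coding promoters (17.0%). At least 3 copies were found in 0.254% of all promoters. Among genes higher in fPSCs 17.3% of promoters held it and among genes lower 14.4%, close to the share of all promoters. AACCGGTT, a letter string of Grainyhead factors, was in none of the 3 windows and in 0.127% of all promoters. A match says only that the letters are present.

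The repressors of the E-box were lower in fPSCs, as was each tested gene of the mesenchymal list. All 16 tested genes of 18 listed fell, with a median log2 fold change of -2.49, where 21.4% of all tested genes fell. Zeb1 was at 4.23 and 2.79 FPKM in EpiSCs and at 0.0646, 0.0279 and 0.0427 FPKM in fPSCs, and Zeb2 at 5.19 and 4.07 FPKM and at 0.423, 0.208 and 0.119 FPKM. Zeb1 fell by 2.09 and Zeb2 by 2.17 on the log2 scale (limma adjusted p = 1.05e-05 and 3.88e-06). Snai1 and Snai2 fell by 2.38 and 1.79. No fPSC library reached an EpiSC library for these 4 genes, as for every gene called lower. Vim, the intermediate filament of mesenchymal cells, was the most abundant gene of the list, at 1107 and 1232 FPKM in EpiSCs and 57.8, 66.8 and 51.3 FPKM in fPSCs, a fall by 4.30. Cdh2, which encodes N-cadherin, was at 30.6 and 30.04 FPKM in EpiSCs and 6.48, 4.76 and 2.72 FPKM in fPSCs, and fell by 2.53. Vim was also below EpiSCs in the feeder-free mESCs and EpiLCs, at 44.9 to 95.5 FPKM, and Cdh2 was at 0.101 to 2.204 FPKM there. Prrx1, Twist2 and S100a4 are on the fibroblast list too. How much of the mesenchymal RNA in EpiSCs came from feeders was not tested.

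Genes of actin contraction had the largest falls of all. Tagln, an actin-binding protein of smooth muscle and of stretched fibroblasts, was at 276 and 322 FPKM in EpiSCs and at 0.655, 1.35 and 0.374 FPKM in fPSCs. It fell by 7.42 on the log2 scale (standard error 0.28, limma adjusted p = 2.06e-07). Acta2, smooth muscle actin, was at 161 and 160 FPKM in EpiSCs and 0.113, 0.0378 and 0.0749 FPKM in fPSCs, a fall by 7.23. All 12 tested genes of 16 on the contractile list fell, with a median of -3.78, where 21.4% of all tested genes fell. They include genes that all cells use. Actn1, Flna and Vcl, which tie actin to adhesions, were at 223 and 271, 228 and 288, and 120 and 135 FPKM in EpiSCs, and fell by 2.83, 2.47 and 2.16. Myl9, a myosin light chain, was not low in all feeder-free cells, with 11.6 and 27.3 FPKM in EpiLCs and 0.0822 and 0.319 FPKM in mESCs.

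The Tagln promoter is shown for its serum response element. Tagln lies on chromosome 9 of mm9 (45737711 to 45744141, minus strand), and the capitals mark the CArG box, the binding sequence of serum response factor.
Tagln, chr9:45744142-45744391: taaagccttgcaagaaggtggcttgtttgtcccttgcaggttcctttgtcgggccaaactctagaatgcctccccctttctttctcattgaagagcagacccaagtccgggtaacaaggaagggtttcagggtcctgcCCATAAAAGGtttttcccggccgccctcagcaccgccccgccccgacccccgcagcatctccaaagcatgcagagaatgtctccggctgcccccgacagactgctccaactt
The box starts 112 bases before the annotated start. A CArG box was found on either strand in 5 of the 16 promoters of the contractile list (Tagln, Myl9, Cnn2, Actg2 and Flna, 31.3%) and in 299 of all 22072 promoters (1.35%). It was found in 1.67% of promoters of genes higher and 1.45% of those lower in fPSCs.

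Fibroblast genes have to be read apart, since EpiSCs were grown on fibroblasts. Of 35 genes on a fibroblast list 26 were tested, and 24 fell and 2 did not pass (median -2.33). Among all tested genes 21.4% fell. A member under 1 FPKM in fPSCs, mESCs and EpiLCs was tested only if both EpiSC libraries reached 1 FPKM. For such a member a fall is the only direction possible, so the filter favours falls here. The same holds for the contractile and mesenchymal lists. Col1a1, the main chain of fibrillar collagen, was at 111 and 153 FPKM in EpiSCs and 0.148, 0.0710 and 0.156 FPKM in fPSCs, a fall by 6.87 (limma adjusted p = 3.55e-08). Col1a2 and the proteoglycan Bgn fell by 5.92 and 6.26. Among the defining markers of fibroblasts, Col3a1 was at 8.66 and 8.68, Pdgfrb at 3.67 and 4.67, Thy1 at 4.63 and 4.01 and Dcn at 2.82 and 1.88 FPKM in EpiSCs. Lum and Postn were below 1 FPKM in both EpiSC libraries, as was Pdgfra. In fPSCs Dcn and Lum were listed at 0 in all 3 libraries, while Thy1 was at 2.61 to 2.77 FPKM. The 87 fibroblast, contractile and collagen genes summed to 0.893% and 1.13% of all FPKM in the EpiSC libraries, to 0.0800% to 0.0828% in fPSCs and to 0.0953% to 0.141% in mESCs and EpiLCs. How much of this RNA came from feeders was not tested. Fewer fibroblasts in a culture and less RNA of these genes per cell cannot be told apart in bulk samples.

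**Figure D3:**
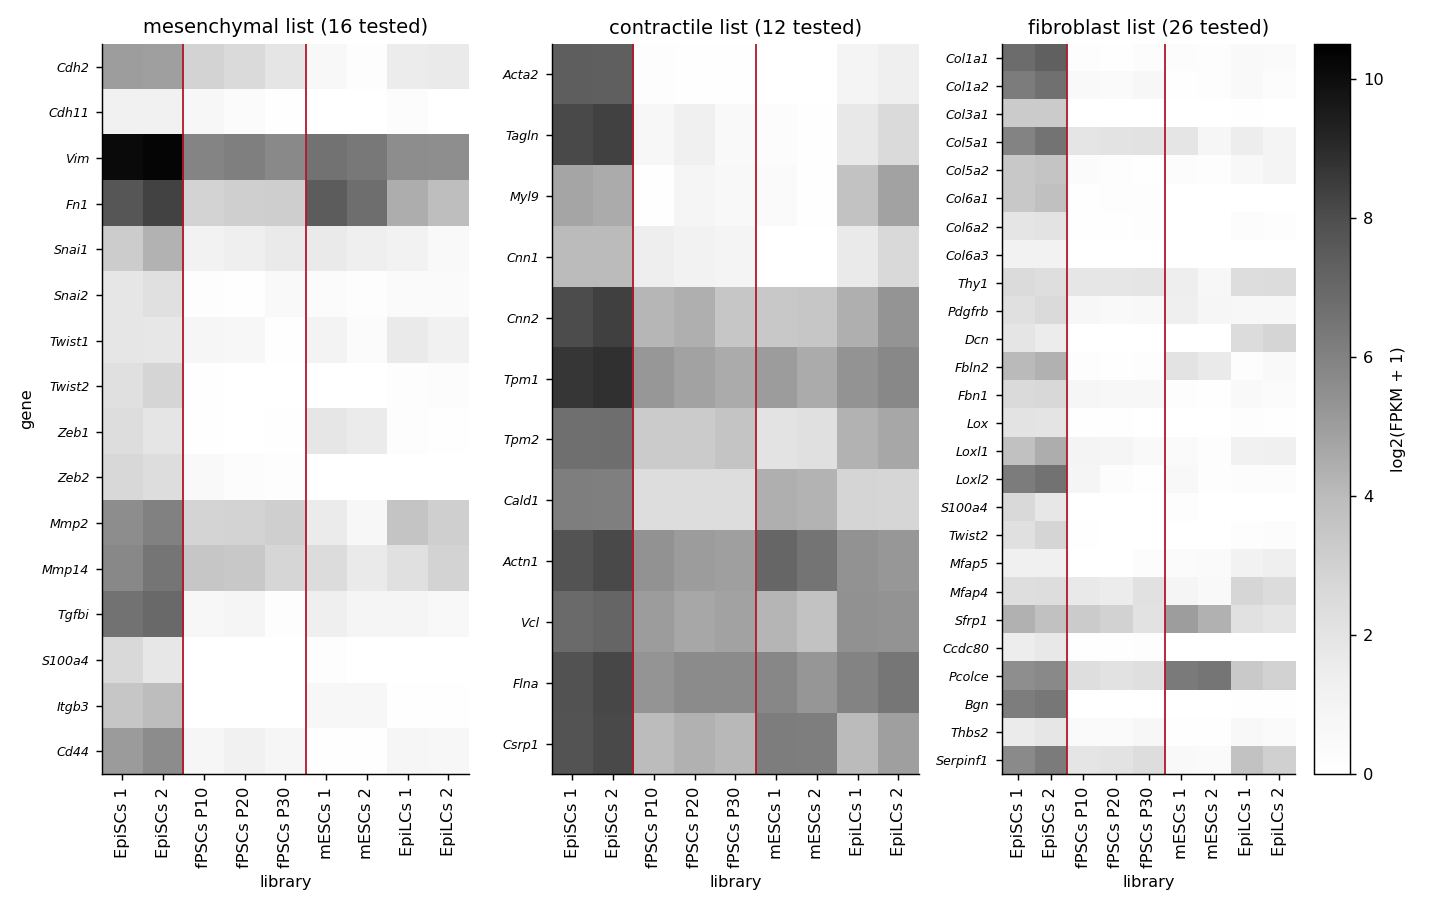
Log2(FPKM + 1) of the tested genes of the mesenchymal, contractile and fibroblast lists (rows) in each of the 9 libraries (columns), darker for higher values. In most rows the 2 EpiSC columns are darker than the 3 fPSC columns, and the fPSC, mESC and EpiLC columns are pale for most genes of the fibroblast block.

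The excess of genes lower in fPSCs did not rest on the fibroblast, contractile and collagen genes alone. Outside these, 11663 tested genes reached 1 FPKM in at least 1 feeder-free mESC or EpiLC library. Of them 2175 (18.6%) were lower and 1216 (10.4%) higher in fPSCs. Other genes of the mesenchymal list, such as Vim and Cdh2, were not set aside. Among the 624 tested genes that no mESC or EpiLC library detected at 1 FPKM, 437 (70.0%) were lower and 32 (5.13%) higher. These 624 genes passed the filter only through EpiSC or fPSC libraries, which are the groups compared. Their shares are therefore partly set by the filter and cannot be compared with those above. Several of the largest falls were in genes that reached 1 FPKM in at least 1 feeder-free library, as Tagln also did. Spp1, the secreted phosphoprotein osteopontin, was at 103 and 130 FPKM in EpiSCs and 0.891, 1.68 and 0.446 FPKM in fPSCs, with 219 and 293 FPKM in mESCs. Anxa2, a calcium-dependent membrane binding protein, was at 138 and 176 FPKM in EpiSCs and 1.113, 1.49 and 0.388 FPKM in fPSCs, with 13.9 and 8.03 FPKM in mESCs. Anxa2 fell by 6.34 and Spp1 by 5.91, and no fPSC library came near the EpiSC values. The other members of this group were the small heat shock protein Cryab (fell by 6.498), the annexins Anxa5 (6.35 lower) and Anxa1 (5.93 lower), and the TGF-β induced matrix protein Tgfbi (6.21 lower). They also hold the calcium-binding S100a6, the actin-severing Gsn, the myelin protein Pmp22 and the imprinted H19 with its miRNA gene Mir675. Mir675 lies inside H19, so their values are not independent. In mESCs and EpiLCs Tgfbi was at 0.472 to 1.57, Pmp22 at 0.0139 to 1.09 and H19 at 0 to 2.14 FPKM. In EpiSCs they were at 96.1 and 123, 66.2 and 70.8, and 73.4 and 57.6 FPKM. Detection at 1 FPKM does not separate feeder RNA at such levels, and the share from feeders was not tested.

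Matrix and adhesion genes were lower almost throughout. Of 14 tested basement membrane genes 13 fell (median -1.53), where 21.4% of all tested genes fell. The collagen IV chains Col4a1 and Col4a2 fell by 4.55 and 4.92. Nid1, which links laminin to collagen IV, was at 36.2 and 58.4 FPKM in EpiSCs and 0.342, 0.184 and 0.269 FPKM in fPSCs, but at 78.9 and 42.4 FPKM in feeder-free mESCs. Lama5, a laminin chain of epithelia, was at 26.5 and 32.4 FPKM in EpiSCs and 24.8, 28.2 and 29.4 FPKM in fPSCs, where the groups overlap. Of 9 tested integrins 7 fell, among them the fibronectin receptor Itga5 (by 3.43) and the laminin receptors Itga6 (by 3.13) and Itga3 (by 2.50). Fn1, the fibronectin ligand of Itga5, fell by 4.98. Of 20 genes of the Hippo pathway and of Yap targets 14 fell (median -1.55). The targets Ctgf, Cyr61, Ankrd1, Axl and Thbs1 fell by 2.77, 3.63, 3.56, 5.25 and 4.98. How much of the matrix, integrin and Yap target RNA in EpiSCs came from feeders was not tested. Yap1 itself, the co-activator, was at 43.7 FPKM in both EpiSC libraries and 32.8, 39.2 and 38.1 FPKM in fPSCs, which did not pass (log2 fold change -0.25, limma adjusted p = 0.259).

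**Figure D4:**
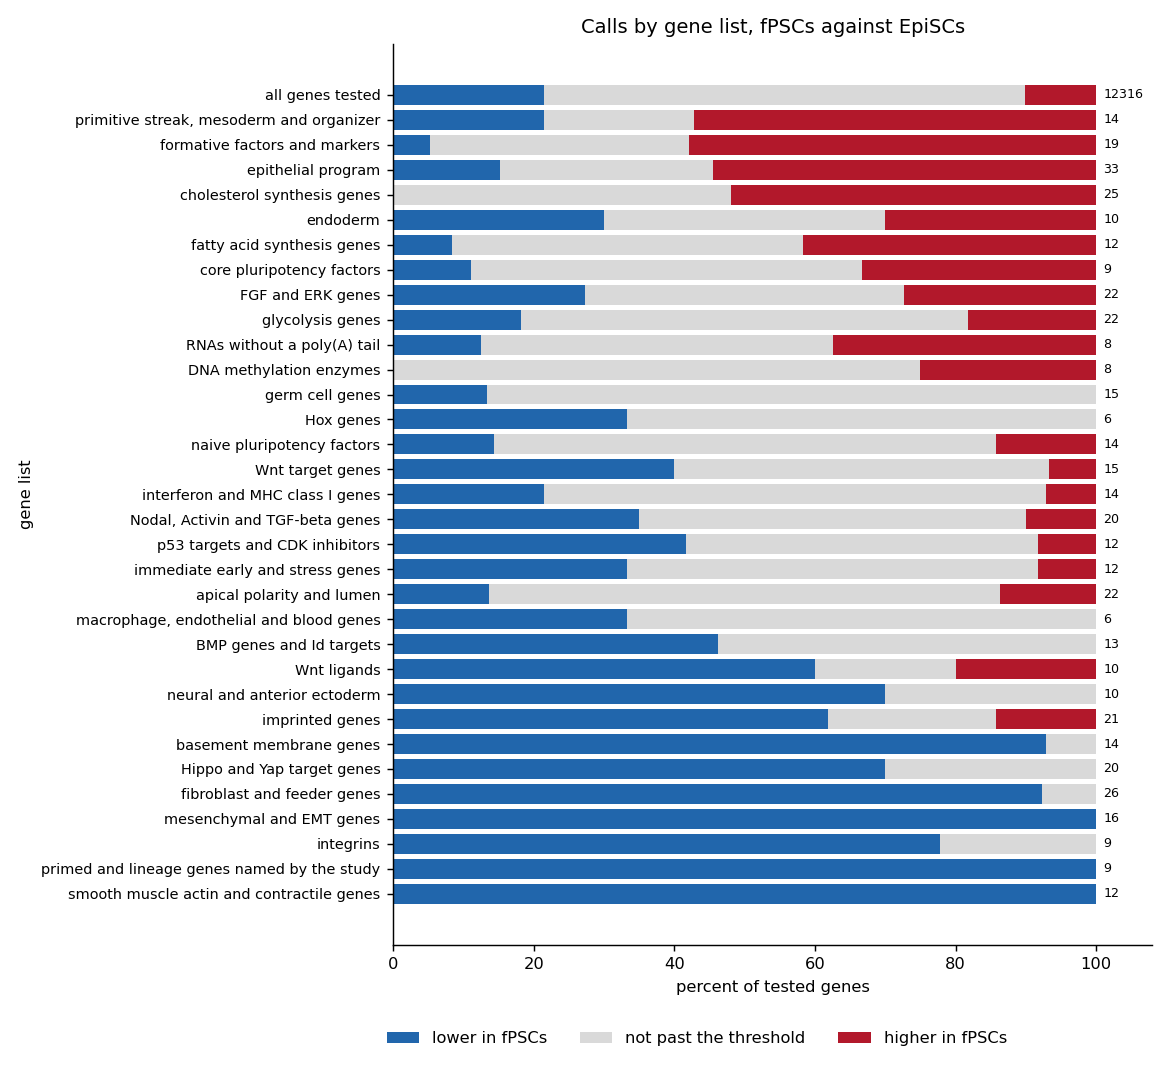
Share of tested genes of each list that were higher (red), lower (blue) or not past the limma threshold (grey) in fPSCs against EpiSCs, with the number of genes tested at the right; the top bar gives all 12316 tested genes. The mesenchymal and contractile lists are blue throughout, the cholesterol list holds no blue, and the epithelial list is red for 18 of 33 genes.

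Formative genes were higher in fPSCs. Of 19 genes on the list 11 rose, 1 fell and 7 did not pass (median 0.91). The shares of all tested genes were 10.1% for rises and 21.4% for falls. Part of this list was picked by the study on these samples, so its direction is not independent evidence. Otx2, a homeobox factor of the egg cylinder, was at 15.4 and 8.60 FPKM in EpiSCs and 48.9, 48.7 and 40.9 FPKM in fPSCs, a rise of 1.90. Fgf5, a marker of the early egg cylinder, was at 10.3 and 14.7 FPKM in EpiSCs and 107.4, 85.2 and 72.9 FPKM in fPSCs, a rise of 2.73 (limma adjusted p = 1.14e-05). The DNA methyltransferase Dnmt3b rose by 1.89 and Foxd3 by 1.89. Pou3f1 did not follow them, at 35.7 and 47.7 FPKM in EpiSCs and 34.0, 40.0 and 35.4 FPKM in fPSCs. Sox4, a factor of progenitor cells, was the gene that fell, by 1.243.

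Of 14 tested naive genes Nanog and Fgf4 rose, Klf2 and Klf5 fell, and 10 did not pass, where 31.5% of all tested genes passed. Fgf4 did not pass with the 4 later fPSC libraries added (limma adjusted p = 0.105). Nanog was at 19.6 and 15.7 FPKM in EpiSCs and 75.4, 66.4 and 82.8 FPKM in fPSCs, a rise of 2.02 (limma adjusted p = 1.57e-05). Zfp42, Esrrb, Nr5a2 and Prdm14 were at 0 to 0.172 FPKM in the 5 libraries. Of 9 core pluripotency genes 3 rose, Pou5f1 (1.07), Tdgf1 (1.01) and L1td1 (1.22), and 1 fell. Without the second EpiSC library Pou5f1 and Tdgf1 no longer passed (limma adjusted p = 0.0538 and 0.0604). The gene that fell was Sox2, which is shared by pluripotent and neural cells, at 80.8 and 62.3 FPKM in EpiSCs and 26.6, 24.98 and 25.7 FPKM in fPSCs, a fall by 1.43 (limma adjusted p = 8.30e-05).

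Lineage genes moved both ways, and most tested neural genes fell. On a list of primitive streak, mesoderm and organizer genes 8 of 14 tested rose, 3 fell and 3 did not pass (median 1.70). Among all tested genes 10.1% rose and 21.4% fell. Eomes, a T-box factor of the streak, was at 3.80 and 5.37 FPKM in EpiSCs and 29.6, 32.9 and 34.7 FPKM in fPSCs, a rise of 2.59. The signals Fgf8, Wnt3 and Nodal, which act in the streak, rose by 2.25, 2.03 and 1.56, and the factors Mixl1, Gsc, Lhx1 and Evx1 by 2.22, 1.84, 1.89 and 2.12. The call of Lhx1 was lost without the first EpiSC library (limma adjusted p = 0.0690) or with the 4 later fPSC libraries added (0.0573). The streak gene T moved the other way, at 30.1 and 42.5 FPKM in EpiSCs and 16.5, 14.7 and 19.1 FPKM in fPSCs, a fall by 1.06 (limma adjusted p = 0.00244, and 0.0706 with the 4 later fPSC libraries added). Hand1, a factor of later and extraembryonic mesoderm, was at 32.7 and 56.8 FPKM in EpiSCs and 0.0354, 0.137 and 0.161 FPKM in fPSCs, and fell by 5.31. Of 19 neural genes 10 were tested, of which 7 fell and none rose. Where 10.1% of all tested genes rose, the lack of a rise among 10 genes says little. Sox1, which marks the neural plate, was at 19.6 and 13.2 FPKM in EpiSCs and 0.0837, 0.0974 and 0.0278 FPKM in fPSCs, and fell by 4.00, and Olig3 was listed at 0 in all fPSC libraries. The genes that the study named as primed or lineage genes on these samples all fell (9 of 9, median -2.74), which is not independent evidence.

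Several of the streak and endoderm genes differed between the passages of fPSCs. Of 10 tested endoderm genes 3 rose, 3 fell and 4 did not pass, where 10.1% of all tested genes rose and 21.4% fell. Foxa2, a factor of endoderm and node, was at 12.1 and 9.33 FPKM in EpiSCs and at 44.3, 20.0 and 5.24 FPKM in fPSCs P10, P20 and P30, so that P30 lay below EpiSCs and P10 above them. Foxa2 did not pass with all 3 passages (limma adjusted p = 0.468) and passed without P30 (0.0137). Cer1, a secreted Nodal and Wnt inhibitor of anterior endoderm, was at 2.07 and 1.82 FPKM in EpiSCs and at 21.1, 10.2 and 2.73 FPKM. Sox17 was at 3.57 and 3.49 FPKM in P10 and P20 and at 0.265 FPKM in P30, near the EpiSC values of 0.0978 and 0.228 FPKM. P30 was the lowest of the 3 fPSC libraries for Foxa2, Cer1, Sox17, Gata4, Gsc, Mixl1 and Lhx1. For Nodal it was the highest, at 54.6 FPKM against 26.8 in P10 and 40.5 in P20, and likewise for Evx1. Each passage is 1 library, so differences between passages have no replicate check. The calls for Sox17 (limma adjusted p = 0.0493) and Cer1 (0.0400) were close to the threshold and were lost without either EpiSC library (0.163 to 0.184 for Sox17 and 0.128 to 0.177 for Cer1), and that of Cer1 also without P10 (0.0722) or P20 (0.0952).

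The counts of the signalling lists stand against 10.1% of all tested genes that rose and 21.4% that fell. Of 10 tested Wnt ligands 6 fell and 2 rose. Wnt7b had one of the largest falls of all genes, from 74.2 and 124 FPKM in EpiSCs to 0.138, 0.124 and 0.198 FPKM in fPSCs (fell by 6.39, limma adjusted p = 1.66e-07), and it was at 0.141 to 0.517 FPKM in mESCs and EpiLCs. Wnt3 and Wnt5b rose, and Wnt5b no longer passed without either EpiSC library, P20 or P30 (limma adjusted p = 0.0852 to 0.138). Of 15 tested Wnt target genes 1 rose, 6 fell and 8 did not pass. The feedback target Axin2 was at 5.82 and 8.46 FPKM in EpiSCs and 12.2, 9.76 and 16.8 FPKM in fPSCs, which did not pass (limma adjusted p = 0.0577, and 0.0438 without P20), and Ccnd1, a cyclin with many inputs, fell by 2.13. Of 20 Nodal, Activin and TGF-β genes 2 rose and 7 fell. The feedback inhibitor Lefty2 was at 17.7 and 18.4 FPKM in EpiSCs and 1.29, 2.97 and 2.81 FPKM in fPSCs, while Lefty1 overlapped between the groups. The TGF-β arm was lower, with Tgfb2, Tgfb3 and Tgfbr2 down by 3.37, 2.42 and 2.95. Of 22 FGF and ERK genes 6 rose and 6 fell. Etv4 and Etv5, immediate targets of FGF signalling, rose by 0.90 and 0.91. With the 4 later fPSC libraries added neither passed, at 0.39 and 0.14 on the log2 scale (limma adjusted p = 0.337 and 0.846), and Etv5 did not pass without the first EpiSC library (0.0834). In the same list Dusp5, Fosl1 and Phlda1 fell by 3.58, 3.43 and 4.502. Of 13 tested BMP genes 6 fell and none rose, among them the target Id1, which fell by 0.97 but did not pass without the first EpiSC library or P10 (limma adjusted p = 0.146 and 0.0541) or with the later libraries added (0.286), and the inhibitor Nog, which fell by 2.26.

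Lipid synthesis genes were higher in fPSCs. Of 25 genes of cholesterol synthesis and its control 13 rose, none fell and 12 did not pass (median 0.63). The shares of all tested genes were 10.1% for rises and 21.4% for falls. Dhcr7, the enzyme of the last step, was at 20.8 and 36.2 FPKM in EpiSCs and 80.2, 117 and 141 FPKM in fPSCs, a rise of 1.96 (limma adjusted p = 0.000971). With the 4 later fPSC libraries added it was 1.15 and did not pass (limma adjusted p = 0.0831). Insig1, a sterol-induced feedback protein, rose by 1.43. Of 12 fatty acid genes 5 rose and 1 fell. Scd1 and Scd2, which desaturate fatty acids, rose by 1.92 and 1.56, and Scd2 reached 575, 648 and 632 FPKM in fPSCs against 215 and 203 FPKM in EpiSCs. Of 22 glycolysis genes 4 rose, 4 fell and 14 did not pass, where 10.1% of all tested genes rose and 21.4% fell. The glucose transporter Slc2a3 was at 182 and 163 FPKM in EpiSCs and 40.8, 59.1 and 42.1 FPKM in fPSCs, a fall by 1.86. Of the 2 cell types only EpiSCs received serum replacement, which cannot be told apart from the cell state here.

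Imprinted genes were mostly lower in fPSCs. Of 21 tested 13 fell and 3 rose (median -1.43), where 31.5% of all tested genes passed. H19 was at 73.4 and 57.6 FPKM in EpiSCs and 0.347, 0.206 and 0.202 FPKM in fPSCs, and fell by 5.72 (limma adjusted p = 8.83e-08). Its neighbour Igf2, a growth factor, fell by 2.57. Nnat was at 237 FPKM in both EpiSC libraries and at 15.5, 5.53 and 1.12 FPKM in fPSCs. The growth inhibitor Cdkn1c fell by 4.14 and Peg10 by 2.84, while Snrpn rose by 0.78. The sex chromosomes also set the lines apart. Xist, the RNA that coats the inactive X chromosome, was at 5.96 and 7.11 FPKM in EpiSCs and 0.00184 to 0.0131 FPKM in fPSCs. The Y-linked genes Ddx3y, Eif2s3y and Uty were at 0.00253 to 0.0298 FPKM in EpiSCs and at 6.84, 8.13 and 2.02 FPKM in fPSCs P10. In P30 they were at 1.55, 1.85 and 0.195 FPKM, the lowest of the 3 passages. A contrast between these lines thus holds a difference in sex chromosomes as well as in cell state. Of 8 enzymes of DNA methylation Dnmt3b and Tet1 rose, by 1.89 and 1.82, and 6 did not pass.

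The rises also hold genes whose values depend on the library or the line. Rn7s1, Rn7s2 and Rn7sk, which encode RNAs without a poly(A) tail, rose by 5.34, 4.74 and 4.86. Rn7s1 was at 1.58 and 2.08 FPKM in EpiSCs and 103, 134 and 105 FPKM in fPSCs, but at 391 and 1641 FPKM in the mESC libraries. In 4 fPSC libraries of a later deposit, from lines CMT P11, 46C P24, BVSC P14 and ROSAmTmG P12, Rn7s1 was at 1.08 to 2.79 FPKM, close to EpiSCs, and it was at 3.46 FPKM in fPSCs P1. In fPSCs from E5.5 and E6.5 epiblasts it was at 194 and 178 FPKM. Tpm3-rs7, a copy of a tropomyosin gene, was at 7.71 and 8.41 FPKM in EpiSCs and 233, 237 and 215 FPKM in fPSCs. It was at 138 FPKM in the later CMT library and at 4.07, 3.69 and 3.67 FPKM in 46C, BVSC and ROSAmTmG. In fPSCs P1, from E5.5 and from E6.5 it was at 164, 119 and 3.61 FPKM. With the 4 later libraries added neither Rn7s1 (limma adjusted p = 0.328) nor Tpm3-rs7 (0.3125) passed. Its reads can be shared with Tpm3, which fell by 1.70, so both levels are uncertain. The 2 remaining genes of this group were Psors1c2, a skin gene of the MHC region (rise of 3.34), and the carbonyl reductase Cbr3 (rise of 3.19). Psors1c2 was at 5.82 FPKM in 46C, within the EpiSC range of 5.20 to 7.32 FPKM.

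In the other fPSC lines Rab25 and Ap1m2 were also above, and Tagln and Col1a1 below, both EpiSC libraries. Rab25 was at 29.5, 21.6, 26.3 and 33.5 FPKM in the CMT P11, 46C, BVSC and ROSAmTmG libraries, and Ap1m2 at 35.2, 27.9, 42.4 and 40.2 FPKM, so that Ap1m2 was higher in each of them than in P10, P20 and P30. Tagln was at 0.098 to 0.209 FPKM in these 4 libraries, lower than in P10, P20 and P30, and Col1a1 at 0.0485 to 0.465 FPKM. fPSCs derived from E5.5 and E6.5 epiblasts had Rab25 at 43.0 and 16.7 FPKM and Tagln at 0.139 and 0.106 FPKM. Anxa2 was less uniform, at 10.1 FPKM in 46C and 0.489 to 2.95 FPKM in the other 3. These libraries share the EpiSC controls and mostly come from another deposit, so the values are set side by side without a test.

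Promoter chromatin in fPSCs differed between the genes higher and lower there. H3K4me3 and H3K27me3, marks of active and of Polycomb-silenced promoters, were deposited as RPKM in bins of 100 bp, and DNA methylation as the methylated fraction in windows of 100 bp. EpiSC chromatin was not analysed here. Each measure comes as 1 track, and by the study's methods the ChIP-seq replicates were merged, so there is no spread between replicates and no test is given. Within 2500 bp of the start, the median H3K27me3 was 0.721 RPKM at the 2421 promoters of genes lower in fPSCs, 0.218 RPKM at the 1076 of genes higher and 0.283 RPKM at all 10765 tested genes with a promoter. The median H3K4me3 was 2.36, 3.61 and 2.96 RPKM. Of the lower genes 20.1% were in the top 10% of all promoters for H3K27me3, against 8.30% of all tested genes. Among the 836 lower genes with a mean under 1 FPKM in fPSCs, 302 (36.1%) were in that top 10%, and 273 (32.7%) had a methylation level above 50% within 1000 bp of the start. Only 34 of these 836 had both. Of 982 tested genes that were as low in fPSCs but not called lower, 18.1% were in the top 10% for H3K27me3 and 490 (49.9%) had a methylation level above 50%.

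The named genes show both kinds of promoter. Tagln, Acta2, Cryab, Spp1, Anxa1 and Bgn had methylation levels of 86.9%, 94.8%, 90.6%, 93.3%, 87.3% and 90% and H3K27me3 of 0.231 to 0.940 RPKM, up to percentile 78.6 of promoters. Wnt7b had 5.06% methylation and 3.20 RPKM of H3K27me3, at percentile 97.1. Hand1, T and Shh were alike, with 4.65, 3.30 and 4.16 RPKM. Col1a1 was in the top 10% for H3K27me3 (2.76 RPKM), with 31.4% methylation. Gsn, Pmp22 and Tgfbi were past both limits, with 2.58, 2.23 and 2.47 RPKM of H3K27me3 and 50.2%, 88.4% and 60.1% methylation. Vim, which was still at 51.3 to 66.8 FPKM in fPSCs, had neither, with 1.5% methylation and 0.875 RPKM. Among genes that rose, Rab25 had 62.0% methylation over 10 windows and 1.87 RPKM of H3K4me3, near the median of 1.74 RPKM over all promoters, and Ap1m2 had 41.1% and 3.01 RPKM. Cdh1 and Fgf5 had 7.21 and 10.1 RPKM of H3K4me3, at percentiles 98.6 and 99.8. The streak genes Eomes, Lhx1, Gsc and Evx1, which rose, were in the top 10% for H3K27me3 too, with 1.83 to 4.37 RPKM.

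**Figure D5:**
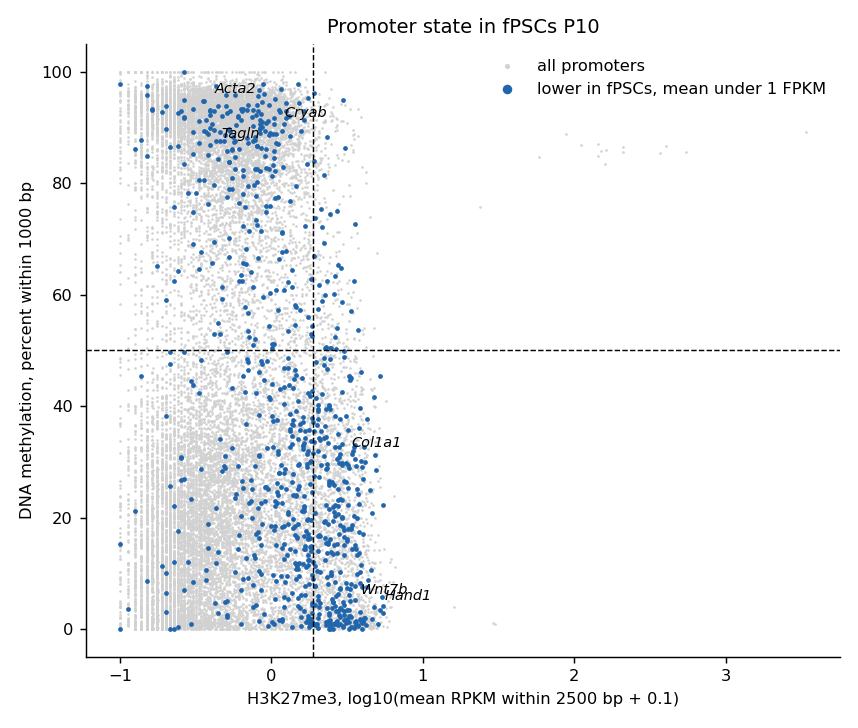
Promoter H3K27me3 (x axis, log10 of the mean RPKM within 2500 bp of the start + 0.1) and DNA methylation (y axis, percent within 1000 bp of the start) in fPSCs; grey points are all protein-coding promoters and blue points the 836 genes lower in fPSCs that had a mean under 1 FPKM there. The dashed lines mark the top 10% for H3K27me3 (1.78 RPKM) and 50% methylation, and only 34 blue points lie beyond both.

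Single fPSCs gave a count of these genes per cell. Smart-seq2 tables of raw counts hold 182 cells of 4 clones, with a median of 23423 counts and 3575 genes per cell. Cdh1 had a count in 166 of 182 cells (91.2%, exact binomial interval 86.1% to 94.9%), and Epcam in 163. Rab25 had one in 34 (18.7%, 13.3% to 25.1%) and Ap1m2 in 69 (37.9%, 30.8% to 45.4%). Eomes was counted in 74 cells (40.7%), Foxa2 in 39 (21.4%) and T in 16 (8.79%). Anxa2, Spp1 and Cryab were counted in 3, 2 and 4 cells. Col1a1 had a count in 53 cells but 143 counts in all, and Vim in 64 cells with 601 counts. Pou5f1, at 462 to 499 FPKM in bulk, had a count in 17 cells, so a gene without a count in these tables is not thereby silent. The intervals pool the cells of 4 clones and cover counting error only. By clone the shares ran from 9.09% to 28.3% for Rab25, 23.9% to 56.5% for Ap1m2 and 86.4% to 97.8% for Cdh1. These ranges are wider than the intervals. No single EpiSCs were analysed here.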

How the data were processed

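RNA-seq of 19 bulk libraries was deposited as FPKM. The authors' notes name cutadapt 1.11, TopHat2 2.1.1 and Cufflinks 2.1.1 and the mm9 genome. The table holds 23608 entries, of which 4 share a name with another entry and were dropped, and 0 columns could not be mapped to a sample. The study tested counts with DESeq2. The deposited FPKM are not counts, so limma 3.58.1 (R 4.3.3, trend option) was run on log2(FPKM + 1) over 9 libraries (2 mESC, 2 EpiLC, 2 EpiSC and 3 fPSC), for the 12316 genes that reached 1 FPKM in 2 or more of these. A gene passed with a fold change of 1.5 or more and a p, adjusted by Benjamini-Hochberg, under 0.05. An exact permutation test of 3 against 2 libraries cannot reach that level. FPKM keep no read depth, so no counting interval is given for bulk values.

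Genes were named by rule: Rab25, Ap1m2 and Tagln; among genes past the threshold, without overlap and with a mean of at least 10 FPKM in 1 group, the 12 largest rises, the 8 largest falls and the 12 largest falls outside the fibroblast, contractile and collagen genes that feeder-free cells detect; and members of the gene lists. A few genes are not reported here. Members and lists were chosen with earlier results of these data known.

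Histone marks of fPSCs P10 were deposited as RPKM in bins of 100 bp (Trim Galore, Bowtie2 2.2.2), and bins that are not listed were taken as 0. DNA methylation was deposited as a fraction per window (BS-Seeker2), without coverage, and is given here as a percent. Promoters were placed by gencode vM1 for 22072 genes with 1 position. The deposited single-cell tables hold raw counts, with 1 cell name listed 2 times. Scripts used Python 3.11.15 with pandas 2.3.3, scipy 1.17.1, pysam 0.24.0 and matplotlib 3.10.9, and the limma step was tested on simulated data. Alternatives covered the pseudocount, the filter, the scaling, the libraries in the fit, the empirical Bayes step and the promoter window.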

Additional observations from a re-analysis of the deposited data

How the results depend on the processing

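The main counts were 3885 genes past the threshold, 1248 higher and 2637 lower in fPSCs, and 2175 lower among genes that feeder-free cells detect. A pseudocount of 0.1, both other scalings, the 5 libraries alone, all 7 long-term fPSC libraries and the robust option moved each count by less than 1.5 times. Without a filter on low values 800 genes were higher. Leaving out 1 library at a time gave 2078 to 3590 genes past the threshold, 528 to 1127 higher, 1550 to 2493 lower and 1451 to 2028 lower among genes that feeder-free cells detect. Each lowest value came without the second EpiSC library, where the lone EpiSC library is assumed to vary like the other groups. Of 156 genes of the text 128 had the same call under every alternative. Calls of Pou5f1, Tdgf1, Cdkn1b, Gata4 and Trib3 were lost without the second EpiSC library. Those of Cer1, Sox17, Uty and Wnt5b were lost under 5 or more alternatives, while Foxa2 passed without P30. With all 7 fPSC libraries Rn7s1, Rn7s2, Rn7sk, Tpm3-rs7, T, Dhcr7, Etv4, Etv5, Fgf4, Gata4, Id1, Lhx1, Podxl and Trib3 no longer passed. No gene of the text changed direction with a call. Within 1 kb of the start in place of 2.5 kb, median H3K27me3 was 0.5475 RPKM for lower and 0.1605 RPKM for higher genes. The causes of these changes were not tested. No paired analysis was possible because the fPSC libraries carry passages and no replicate numbers. The depth behind the FPKM is unknown, which limits what low values can show.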

Other observations

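On a list of p53 targets and CDK inhibitors 5 of 12 genes fell, 1 rose and 6 did not pass, where 21.4% of all tested genes fell and 10.1% rose. Cdkn2b, an inhibitor of CDK4 and CDK6, was at 15.0 and 19.3 FPKM in EpiSCs and at 0.507, 0.194 and 0.192 FPKM in fPSCs, and fell by 3.80 on the log2 scale (limma adjusted p = 7.85e-07). Its neighbour Cdkn2a fell by 2.98 and the p53 target Cdkn1a by 1.46, while Cdkn1b rose by 0.82. Cdkn1b did not pass without the second EpiSC library (log2 scale 0.41, limma adjusted p = 0.328) or without P10 (0.103). Among 12 immediate early and stress genes 4 fell and 1 rose, against the same shares of all tested genes. Jun, a subunit of AP-1, was at 16.2 and 28.8 FPKM in EpiSCs and 2.34, 2.57 and 1.92 FPKM in fPSCs, and fell by 2.80. Trib3, a stress kinase homologue, rose by 1.25 and did not pass without the second EpiSC library (limma adjusted p = 0.0656) or with the 4 later fPSC libraries added (0.168).

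Of 14 tested interferon and MHC class I genes 3 fell, 1 rose and 10 did not pass, where 21.4% of all tested genes fell. B2m, the light chain of MHC class I, fell by 1.73. Of 6 tested genes on a list of macrophage, endothelial and blood genes 2 fell. Laptm5 was at 39.1 and 43.9 FPKM in EpiSCs and 0.0266, 0.00797 and 0 FPKM in fPSCs, and was also at 50.6 and 22.9 FPKM in mESCs. The leukocyte genes Ptprc and Tyrobp were at 0 to 0.00414 FPKM in the 5 libraries. Of 15 tested germ cell genes 2 fell and none rose, where 21.4% of all tested genes fell and 10.1% rose. Dazl, Mael and Stk31 were listed at 0 in all 5 libraries. In single fPSCs, however, Stk31 had a count in 35 of 182 cells (19.2%) and Mael in 2. The cause of this difference was not tested.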
